A study of Drosophila melanogaster with 72 samples.

Results

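The data describe a single genotype followed over 1 day: 17 libraries of nuclear RNA, of the 72 in the series, from outer photoreceptors of male Drosophila melanogaster aged to D10 that carried RNAi against Set1. They were taken by their labels and comprise every library labelled Set1 RNAi except ZT20 replicate 1, which the study left out for poor quality and which holds 687 read pairs. In these flies Rh1-Gal4, a driver active in outer photoreceptors, expressed both GFP-KASH, a tag on the nuclear membrane, and the RNAi line TRiP.HMS01837 against Set1. The control flies carried the same driver and tag with RNAi against mCherry, which has no target in the fly, in 18 libraries. Other cells of the head were not meant to express the RNAi, and tagged nuclei were captured on anti-GFP beads from the heads of 400 flies per sample. Flies lived in 12 h of light and 12 h of dark, lights came on at ZT0 (zeitgeber time 0), and heads were collected every 4 h at ZT0, ZT4, ZT8, ZT12, ZT16 and ZT20, with 3 libraries at each time and 2 at ZT20. The sources describe the replicates as biological but do not say that they came from separate crosses, so p-values here measure the spread among these samples, and in bulk nuclei fewer cells of a type and less RNA per cell cannot be told apart.

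Set1 is the catalytic subunit of a COMPASS complex, which methylates lysine 4 of histone H3, a mark found at the starts of transcribed genes. Trr and Trx are the related enzymes of the fly. The circadian clock of the fly is a loop in which Clk and Cyc activate per, tim, vri, Pdp1 and cwo, and the products of these genes then repress or tune Clk and Cyc. In photoreceptors this loop runs beside direct responses to light, which is sensed by rhodopsin and relayed through a G protein and phospholipase C to the TRP and TRPL channels.

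The 17 libraries held 8424081 to 13384021 read pairs on exons, and values are given as CPM, the read pairs of a gene brought to a common library total with the TMM factors of edgeR. The labelled target was examined first. Set1 RNA was at 170, 203 and 168 CPM at ZT0, 154, 200 and 190 at ZT4, 190, 193 and 198 at ZT8, 268, 296 and 303 at ZT12, 243, 271 and 251 at ZT16, and 202 and 182 at ZT20. In a joint scaling of both genotypes, the libraries labelled Set1 RNAi lay below those labelled mCherry RNAi at 2 of 6 time points (ZT8 and ZT20), above them at 1 (ZT12), and overlapped them at 3. Set1 RNA in these nuclei therefore did not set the labels apart, and a direction against mCherry RNAi is one between libraries so labelled. By the paper's account its nuclear RNA is mainly a measure of pre-mRNA. How far mature Set1 mRNA or its protein was lowered is not measured by these libraries. Set1 ZT12 replicate 3 stood apart: 961 of the tested genes (8.91%) had no count in it, against at most 0.53% in any other of the 17, and it had the lowest total. Markers of outer photoreceptors were abundant, with a summed level of 37772 to 66085 CPM (median 49793) over 10 genes. Those of inner photoreceptors summed to 61.5 to 151 CPM, of lens and pigment cells to 15.95 to 54.9, of brain neurons to 210 to 392, of hemocytes to 95.1 to 185, and of fat body to 1320 to 3067. Muscle markers summed to 28.5 to 227 CPM, with the highest value in ZT20 replicate 3. Of the 6 tested, 5 were called over the day, against 31.6% of all tested genes, and all 5 were highest at ZT20. Without ZT20 replicate 3 the count was 1, and without ZT16 replicate 3 it was 3. Glial markers summed to 236 to 1836 CPM, of which Eaat1 alone gave 84.2 to 1562. The other 6 summed to 261 to 295 CPM at ZT4 and 128 to 158 at ZT16 and ZT20, but of these only nrv2 (range 2.14 in log2, highest at ZT4) and repo, the defining glial factor (highest at ZT0), were called, and moody, alrm, Gs2 and wrapper were not (adjusted p between 0.842 and 0.973). The part of other cells in the results below was not tested.

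RNA levels of many genes moved with the time of day in these nuclei. Of 10783 genes with at least 1 CPM in every library of at least 1 time point, 3411 (31.6%) changed over the 6 time points in an edgeR quasi-likelihood test with 5 degrees of freedom, at an adjusted p under 0.05. A 24-h cosine was called in 3249 (30.1%), of which 2751 were also called by the first test, and a departure from a cosine in 655 (6.07%). The range of a gene, the log2 ratio of its highest over its lowest time point mean, had a median of 1.15 among the changed genes (quartiles 0.79 and 1.83) and of 0.82 among all tested. It was at least 1 in 2021 of the changed genes and at least 3 in 258. Without ZT12 replicate 3 the test called 4419 of 10808 genes, 3322 of the 3411 among them, the cosine 3851 and the departure 999. The departure count was also 428 without ZT4 replicate 1 and 436 without ZT8 replicate 1.

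The changed genes were not spread evenly over the day. The highest mean fell at ZT4 in 1032 of them (30.3%), at ZT12 in 721 (21.1%), at ZT20 in 631 (18.5%), at ZT16 in 564 (16.5%), at ZT0 in 263 (7.71%) and at ZT8 in 200 (5.86%). Over all tested genes ZT4 held 20.3%, ZT12 21.4%, ZT20 16.95%, ZT16 15.3%, ZT0 12.9% and ZT8 13.2%. The share among changed genes was thus well above that of all tested genes at ZT4 and below it at ZT0 and ZT8. At ZT12, ZT16 and ZT20 it was close to that of all tested genes. Genes highest at ZT4 also had the largest median range, 1.41 in log2, against 0.95 to 1.24 for those highest at the other 5 time points.

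**Figure D1:**
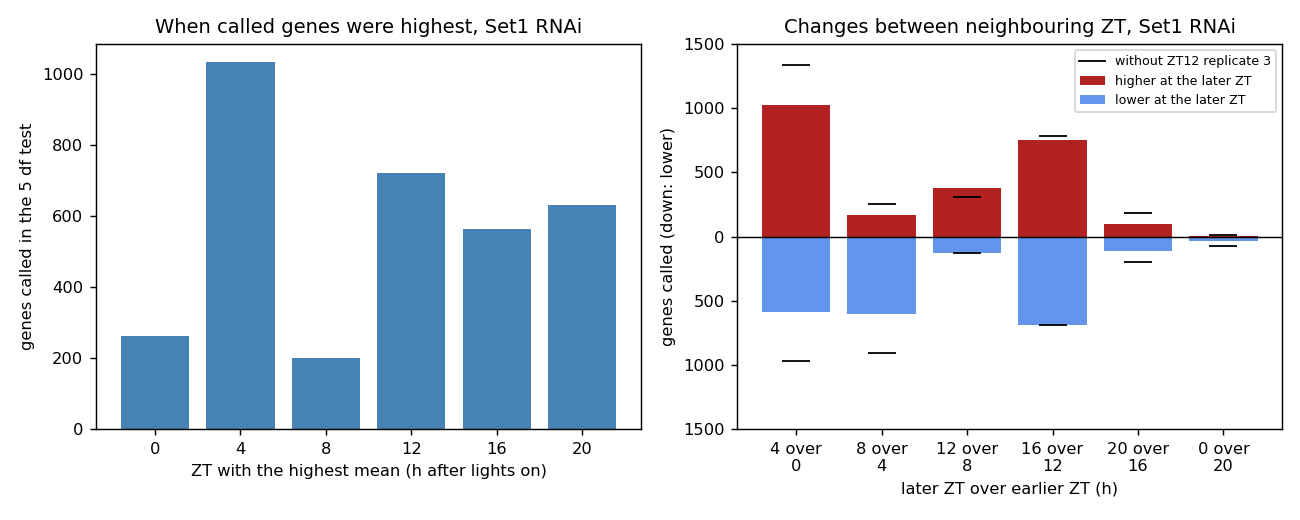
Genes by the time of day in the 17 libraries labelled Set1 RNAi: on the left the number changed over the day by the ZT of their highest mean, and on the right the number higher (up) or lower (down) at each ZT than 4 h before it (adjusted p under 0.05), with black dashes for the counts without ZT12 replicate 3. ZT4 holds the most peaks (1032 of 3411), and the step into ZT4 the most changed genes (1026 higher and 587 lower).

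Between neighbouring time points, the largest turnover came after lights on and after lights off. At ZT4, 1026 genes (9.51%) were higher and 587 (5.44%) lower than at ZT0, and 782 of the 1026 had their highest mean at ZT4. At ZT8, 170 (1.58%) were higher and 599 (5.56%) lower than at ZT4. At ZT12, 378 (3.51%) were higher and 125 (1.16%) lower than at ZT8. At ZT16, 4 h into the dark, 754 (6.99%) were higher and 686 (6.36%) lower than at ZT12. At ZT20, 98 (0.909%) were higher and 112 (1.04%) lower than at ZT16, and at ZT0, 3 (0.0278%) were higher and 31 (0.287%) lower than at ZT20 by edgeR, with 837 at an unadjusted p under 0.05. ZT20 had 2 libraries, so its steps rest on fewer values. Single libraries moved several of these counts by over 1.5 times. Without ZT12 replicate 3 the counts of higher and lower genes were, in the order of the steps, 1337 and 970, 256 and 907, 312 and 131, 785 and 689, 187 and 195, and 9 and 73. Without ZT4 replicate 1, 358 genes were lower at ZT4 than at ZT0, and 95 were higher and 375 lower at ZT8 than at ZT4. The step into ZT8 gave 106 and 323 genes without ZT8 replicate 1, and 350 lower genes without ZT8 replicate 2. The step into ZT12 gave 618 and 452 genes without ZT12 replicate 2, and 148 and 38, 169 and 49, or 238 and 46 without ZT8 replicate 1, 2 or 3. The step into ZT16 gave 461 higher genes without ZT16 replicate 3. The step into ZT20 gave 61 and 65 genes without ZT20 replicate 2, 31 and 26 without ZT20 replicate 3, 61 and 71 without ZT16 replicate 3, and 51 higher genes without ZT16 replicate 1. The step into ZT0 gave 1 and 11 genes without ZT20 replicate 2, 0 and 7 without ZT20 replicate 3, 1 and 16 without ZT0 replicate 1, and 15 lower genes without ZT0 replicate 3.

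The core clock genes had the largest swings of any list described here. Of the 9 genes, 8 changed over the day against 31.6% of all tested genes, and their median range was 3.87 in log2 against 0.82. The other, cyc, which encodes the partner of Clk, was at 14.3 to 27.0 CPM except in ZT12 replicate 3 (5.0 CPM), and its adjusted p was 0.0658, or 0.000581 without that library.

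The genes that Clk and Cyc activate were low at ZT0 and ZT4 and high from ZT8 to ZT16. tim, whose product binds Per and is degraded in light, was at 236, 263 and 250 CPM at ZT0, 278, 266 and 284 at ZT4, 4013, 3892 and 5147 at ZT8, 7998, 7952 and 9307 at ZT12, 6205, 7114 and 7053 at ZT16, and 1697 and 1305 at ZT20. No library of ZT8 to ZT16 overlapped one of ZT0, ZT4 or ZT20. The range was 5.08 in log2 (adjusted p = 1.77e-14), with a step of 3.98 at ZT8 over ZT4 and of -2.59 at ZT0 over ZT20, the largest fall of that step by the rule for named genes. per, the repressor that enters the nucleus with Tim, was at 23.5, 32.1 and 33.1 CPM at ZT0, 81.6, 74.7 and 75.4 at ZT4, 378, 383 and 509 at ZT8, 564, 728 and 685 at ZT12, 605, 662 and 734 at ZT16, and 79.7 and 62.5 at ZT20. Unlike tim, per was already 1.39 higher in log2 at ZT4 than at ZT0 (adjusted p = 4.2e-06). Its libraries at ZT12 and ZT16 overlapped, and its range was 4.50.

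vri, a bZIP repressor of Clk, was at 45.7, 43.9 and 41.4 CPM at ZT0, 96.8, 62.7 and 94.3 at ZT4, 760, 759 and 851 at ZT8, 882, 727 and 927 at ZT12, 769, 688 and 718 at ZT16, and 109 and 81.5 at ZT20. It formed a plateau from ZT8 to ZT16, with no called step between these times (0.10 and -0.22 in log2), and a range of 4.27. Pdp1, a bZIP activator of Clk, was at 1033, 1330 and 1054 CPM at ZT0, 704, 838 and 755 at ZT4, 4050, 4303 and 4413 at ZT8, 10823, 8549 and 8625 at ZT12, 8792, 5393 and 5931 at ZT16, and 2498 and 1853 at ZT20. Its highest point came at ZT12, 1.13 in log2 above ZT8 (adjusted p = 0.0011), and its range was 3.61.

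The remaining activated genes had single peaks at ZT12. cwo, a repressor that competes at Clk and Cyc sites, was at 51.6, 52.2 and 48.1 CPM at ZT0, 49.4, 51.8 and 54.7 at ZT4, 381, 375 and 446 at ZT8, 572, 613 and 532 at ZT12, 292, 392 and 314 at ZT16, and 126 and 110 at ZT20. Cipc, whose mammalian counterpart inhibits CLOCK, was at 17, 18.2 and 9.67 CPM at ZT0, 7.81, 15.1 and 14.3 at ZT4, 245, 254 and 291 at ZT8, 308, 359 and 334 at ZT12, 84.8, 97.0 and 86.7 at ZT16, and 17.2 and 17 at ZT20. Both fell at ZT16 against ZT12, by 0.78 in log2 for cwo and by 1.90 for Cipc (adjusted p = 0.00013 and 2.6e-06), and their ranges were 3.50 and 4.74.

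Clk and cry ran opposite to these genes. Clk, the activator itself, was at 421, 627 and 519 CPM at ZT0, 388, 350 and 390 at ZT4, 72.5, 81.3 and 54.4 at ZT8, 31.0, 41.9 and 53.1 at ZT12, 55.6, 59.8 and 44.5 at ZT16, and 663 and 559 at ZT20. Its rise at ZT20 over ZT16 was 3.52 in log2 (adjusted p = 9.3e-09), and no library of ZT8 to ZT16 reached one of the other times. cry, which encodes the blue-light receptor that acts on Tim, was at 31.8, 28.3 and 31.7 CPM at ZT0, 33.9, 28.2 and 33.6 at ZT4, 15.2, 12.2 and 16.7 at ZT8, 8.49, 7.03 and 11.6 at ZT12, 7.12, 7.32 and 7.70 at ZT16, and 21.0 and 29.5 at ZT20. The fitted peaks of the 24-h cosine lay at ZT 23.8 for Clk and 1.4 for cry, against 11.3 to 13.3 for the 6 activated genes.

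**Figure D2:**
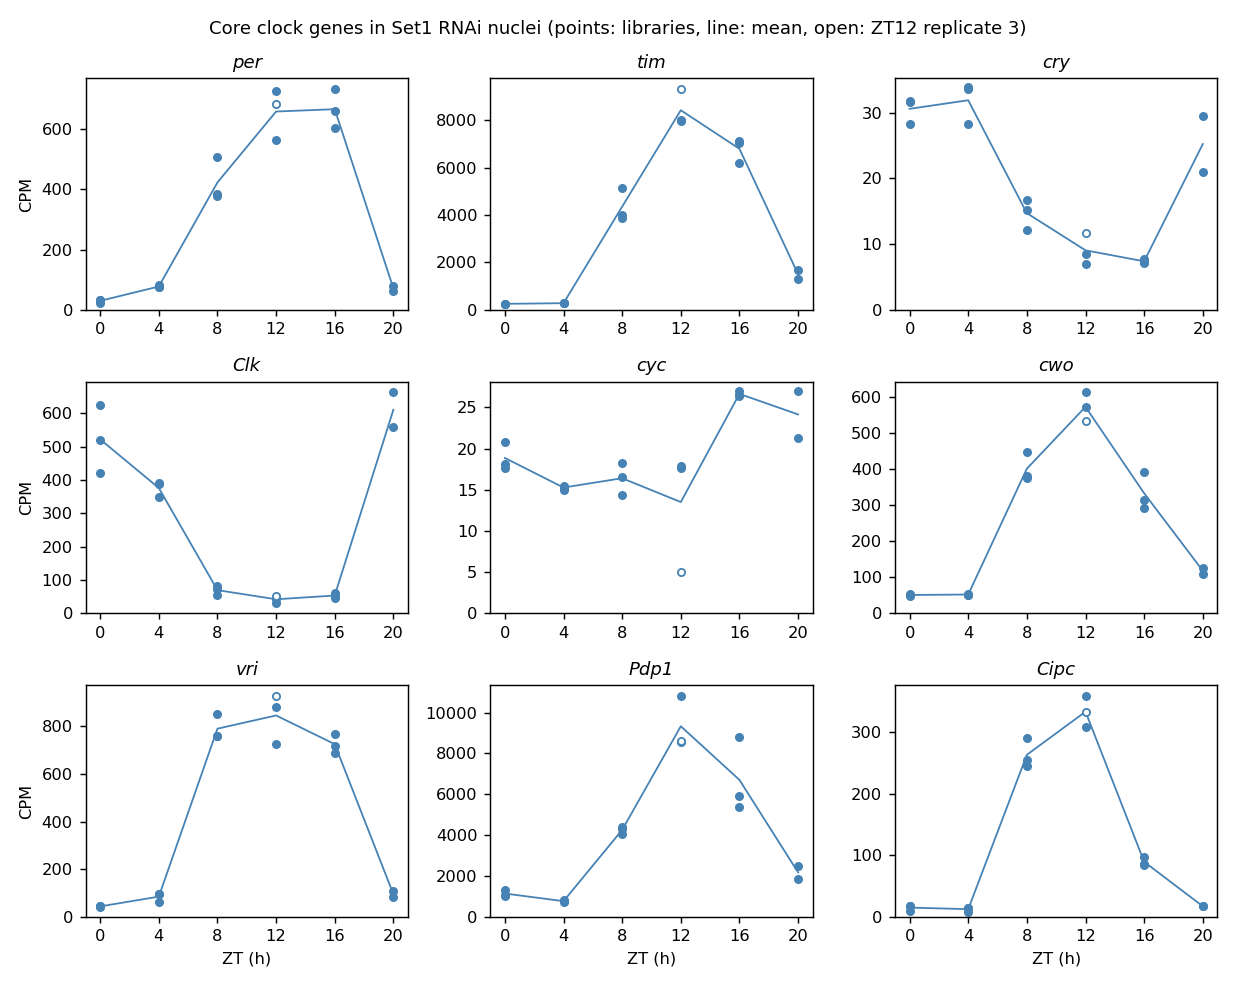
CPM (linear axes that start at 0, 1 panel per gene) of the 9 core clock genes at each ZT in the 17 libraries labelled Set1 RNAi, with points for libraries, lines through the means and an open point for ZT12 replicate 3. tim, vri, cwo, Pdp1 and Cipc peak at ZT12, Clk is high at ZT20 and ZT0, and the open point of cyc (5.0 CPM) lies below its other libraries.

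Regulators of the stability of clock proteins had smaller ranges than the core clock genes, with a median of 0.77. On that list 6 of 10 changed (60%, against 31.6% of all tested genes). The largest range was that of tws (1.68), a regulatory subunit of the phosphatase PP2A, which acts on Per: it was at 200, 236 and 205 CPM at ZT0, 419, 539 and 382 at ZT4, 529, 521 and 585 at ZT8, 647, 635 and 572 at ZT12, 424, 284 and 297 at ZT16, and 201 and 184 at ZT20. CkIIalpha, the catalytic subunit of casein kinase 2, which phosphorylates Per and Tim, was at 36.9, 49.0 and 43.3 CPM at ZT0, 77.0, 90.0 and 69.8 at ZT4, 121, 105 and 101 at ZT8, 111, 91.9 and 103 at ZT12, 54.1, 55.0 and 55.9 at ZT16, and 46.3 and 42.8 at ZT20. nmo, a kinase that phosphorylates Per, had a range of 1.22 with its highest values at ZT12 (381, 361 and 342 CPM) and its lowest at ZT0 (159, 162 and 143). These 3 genes were highest in the light or at its end. The kinase gene sgg, slmb, jet and the PP2A catalytic gene mts did not pass the test (ranges 0.30 to 0.45).

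Genes of phototransduction changed in both directions, at different hours. Of 20 genes, 14 passed the test (70%, against 31.6% of all tested genes). Of the 14, 4 were highest at ZT4, 4 at ZT12, 4 at ZT16 and 2 at ZT20. Of all changed genes, these times held 30.3%, 21.1%, 16.5% and 18.5%. The median range of the 20 was 0.73, below that of all tested genes. Ggamma30A, the gamma subunit of the visual G protein, was at 8812, 9601 and 7245 CPM at ZT0, 20660, 24110 and 17990 at ZT4, 18596, 16278 and 17735 at ZT8, 18868, 19089 and 17984 at ZT12, 7991, 8241 and 7979 at ZT16, and 8002 and 6599 at ZT20. trpl, one of the light-gated channels, was at 5428, 6324 and 6860 CPM at ZT0, 15336, 14072 and 13782 at ZT4, 10637, 9670 and 11797 at ZT8, 10844, 11762 and 12829 at ZT12, 7288, 4522 and 6220 at ZT16, and 4957 and 4986 at ZT20. For both genes every library of ZT4 to ZT12 lay above every library of the other 3 times, and trpl rose by 1.21 in log2 at ZT4 over ZT0 and fell by 0.97 at ZT16 (adjusted p = 8.7e-06 and 0.00014).

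The scaffold of the same pathway was high at the opposite time. inaD, which holds phospholipase C, protein kinase C and the TRP channel together, was at 744, 1142 and 999 CPM at ZT0, 664, 582 and 619 at ZT4, 329, 370 and 461 at ZT8, 470, 457 and 542 at ZT12, 1141, 1010 and 1138 at ZT16, and 1183 and 1251 at ZT20. inaC, the eye protein kinase C, likewise had its highest mean at ZT20 (range 1.29). ninaE, which encodes the rhodopsin Rh1, did not pass the test (range 0.44), nor did Galphaq, Arr2, laza, Pis and stops (0.47 to 0.61).

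**Figure D3:**
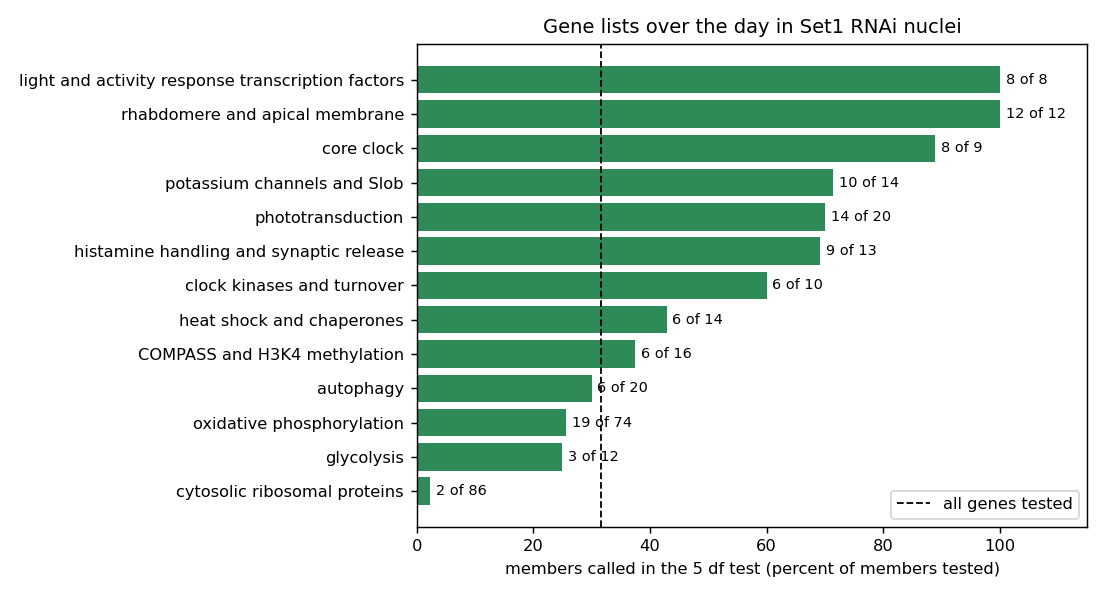
Percent of the tested members of 13 gene lists that changed over the 6 time points in the libraries labelled Set1 RNAi (bars, with the counts beside them), and the percent of all tested genes (dashed line, 31.6%). The longest bars are those of 8 of 8 light and activity response factors and of 12 of 12 rhabdomere and apical membrane genes, and cytosolic ribosomal proteins are lowest with 2 of 86.

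All 12 tested genes of the rhabdomere, the stack of light-sensing membrane, and of the apical membrane passed the test, against 31.6% of all tested genes. Without ZT12 replicate 3, 10 of the 12 passed, and the median range was 0.75. Another, ninaA, had no count in any of the 17 libraries and so was not tested. Whether its RNA was absent or its reads were not assigned to it cannot be told from these counts. Moe, which links actin to the membrane, was at 279, 437 and 347 CPM at ZT0, 261, 297 and 280 at ZT4, 606, 575 and 645 at ZT8, 827, 781 and 748 at ZT12, 894, 787 and 740 at ZT16, and 446 and 406 at ZT20. crb, a transmembrane organiser of the apical domain, was at 533, 698 and 694 CPM at ZT0, 1356, 1271 and 1326 at ZT4, 1510, 1442 and 1784 at ZT8, 1560, 1712 and 1714 at ZT12, 960, 878 and 1029 at ZT16, and 704 and 622 at ZT20. sdt, whose product binds Crb, was instead highest at ZT20 (1834 and 1748 CPM) and lowest at ZT8 (979, 1018 and 1135). Moe was thus highest at ZT12 and ZT16, crb from ZT4 to ZT12 and sdt at ZT20, with ranges of 1.53, 1.37 and 0.78.

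Most transcription factors on the list of light and activity responses were higher at ZT4 than at ZT0 and lower at ZT16 than at ZT12. All 8 on the list changed over the day, against 31.6% of all tested genes. Of the 8, 5 were highest at ZT4, against 30.3% of all changed genes. At ZT4, 6 were higher than at ZT0, against 9.51% of all tested genes. At ZT16, 6 were lower than at ZT12, against 6.36%. Hr38, an orphan nuclear receptor of the NR4A family induced by neuronal activity, was at 21.7, 10.4 and 16.8 CPM at ZT0, 381, 441 and 305 at ZT4, 199, 176 and 154 at ZT8, 185, 347 and 203 at ZT12, 15.9, 21.8 and 22.8 at ZT16, and 13.3 and 20.7 at ZT20. sr, an EGR family zinc finger factor, was at 18.8, 13 and 14.3 CPM at ZT0, 147, 158 and 125 at ZT4, 87.5, 98.5 and 92.6 at ZT8, 138, 101 and 98.2 at ZT12, 12.8, 15.7 and 11.5 at ZT16, and 13.9 and 19.7 at ZT20. Neither gene had a library of ZT4, ZT8 or ZT12 that overlapped one of ZT0, ZT16 or ZT20. ZT0 and ZT12 fall at lights on and lights off, and the study collected ZT12 under red light with its dark samples.

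kay, the fly Fos, had a weaker and later course: 146, 136 and 124 CPM at ZT0, 461, 419 and 354 at ZT4, 289, 322 and 301 at ZT8, 481, 700 and 506 at ZT12, 260, 292 and 210 at ZT16, and 151 and 128 at ZT20. The steps at ZT4 over ZT0 were 4.52 in log2 for Hr38 and 3.21 for sr, and at ZT16 over ZT12 they were -3.60 and -3.08 (adjusted p between 9.5e-10 and 1.2e-07). Jra, the fly Jun, was called with a range of 1.17 but was highest at ZT0, and cbt, a zinc finger factor, with a range of 0.49 was highest at ZT12 and lowest at ZT4.

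Histamine, the transmitter of fly photoreceptors, is recycled with the help of glia. Of 13 genes of its handling and of synaptic release 9 changed (69.2%, against 31.6% of all tested genes), with a median range of 0.69. tan (t), the hydrolase that frees histamine from carcinine, was at 256, 387 and 311 CPM at ZT0, 123, 134 and 135 at ZT4, 110, 107 and 141 at ZT8, 206, 205 and 216 at ZT12, 425, 436 and 467 at ZT16, and 452 and 473 at ZT20. ebony (e), the enzyme that makes carcinine and acts in glia, was highest at ZT4 (116, 93.3 and 109 CPM) and lowest at ZT16 (27.3, 39.5 and 41.0). tan was thus low at ZT4, when ebony was highest. Of the glial markers, Eaat1 and nrv2 were likewise highest at ZT4, while repo was highest at ZT0 and the other 4 were not called. cac, the presynaptic calcium channel, was highest at ZT16 (2955, 3029 and 2915 CPM) and lowest at ZT4 (1212, 1431 and 1372), a range of 1.15. brp, Rim, nSyb and Syx1A did not pass the test (0.35 to 0.52).

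Among 14 potassium channel genes and Slob together, 10 passed the test (71.4%, against 31.6% of all tested genes). The count was 6 without ZT8 replicate 1 or replicate 2, and the median range was 0.78. eag, a voltage-gated channel, was at 3124, 3733 and 3179 CPM at ZT0, 1276, 1590 and 1446 at ZT4, 1211, 1456 and 1574 at ZT8, 1573, 1362 and 1453 at ZT12, 3227, 3084 and 3227 at ZT16, and 3813 and 3664 at ZT20. Sh, the Shaker channel, was highest at ZT0 (12192, 15413 and 11257 CPM) and lowest at ZT8 (4378, 5770 and 5094). Every library of both genes at ZT16, ZT20 and ZT0 lay above every library at ZT4 and ZT8, and the ranges were 1.40 and 1.35. Slob, which binds the Slowpoke channel, ran the other way, at 1732, 2231 and 1970 CPM at ZT0, 2729, 2826 and 2420 at ZT4, 6281, 6063 and 6967 at ZT8, 6080, 5580 and 5616 at ZT12, 6101, 5043 and 5184 at ZT16, and 2472 and 2021 at ZT20.

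The genes of COMPASS and of methylation of H3 lysine 4 had a median range of 0.69, below the 0.82 of all tested genes. Of 16 genes 6 passed the test (37.5%, against 31.6% of all tested genes). Without ZT12 replicate 3, 9 of them passed, and 40.9% of all tested genes. Set1 was itself one of them, with a range of 0.68 and its highest libraries at ZT12 (adjusted p = 0.000162). trr, the enzyme linked to monomethylation at enhancers, was at 174, 209 and 237 CPM at ZT0, 366, 352 and 368 at ZT4, 258, 243 and 298 at ZT8, 210, 285 and 278 at ZT12, 144, 170 and 202 at ZT16, and 200 and 170 at ZT20. Its ZT4 libraries stood above all others, with a step of 0.81 in log2 over ZT0 (adjusted p = 0.00069). trx lay between 375 and 554 CPM and did not pass (adjusted p = 0.122, or 0.0484 without ZT12 replicate 3). Mnn1, the fly menin, was called with a range of 0.71 and was lowest at ZT4 (54.8, 73.5 and 61.1 CPM).

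Housekeeping lists ranged from nearly flat to a share near the 31.6% of all tested genes. Cytosolic ribosomal protein genes were the flattest: 2 of 86 passed the test, with a median range of 0.48. RpL10 was one, highest at ZT8 (89.1, 74.6 and 79.1 CPM) and low at ZT0 (42.6, 31.9 and 31.1), and the paralogue RpS10a the other, at 1.12 to 15.5 CPM. Their fellow member RpS5b, was at 0 to 2.27 CPM and missed the threshold (adjusted p = 0.0512). In glycolysis 3 of 12 genes passed (median 0.50): Ldh, lactate dehydrogenase, highest at ZT12 (7.56, 15.2 and 13.6 CPM, against 1.67, 1.95 and 0.782 at ZT0), PyK, pyruvate kinase, with a range of 1.01, and Hex-A, a hexokinase, with 0.73.

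Of 74 genes of oxidative phosphorylation 19 passed the test (25.7%, against 31.6% of all tested genes), or 30 without ZT12 replicate 3. The median range of the 74 was 0.80, close to that of all genes. Without ZT20 replicate 3, the library with the most muscle marker RNA, 15 passed. Of the 19, 9 were highest at ZT20, against 18.5% of all changed genes. Lower at ZT4 than at ZT0 were 10 of the 74, against 5.44% of all tested genes. ND-51, a subunit of complex I, was at 56.3, 60.04 and 64.8 CPM at ZT0 and at 24.8, 28.3 and 33.8 at ZT8. The paralogues UQCR-11L and COX7AL did not follow that pattern: UQCR-11L was highest at ZT12 (61.1, 60.9 and 59.2 CPM) and lowest at ZT0 (9.56, 11.9 and 7.62), and COX7AL highest at ZT4 (13.8, 13 and 13.2).

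Of 20 autophagy genes 6 passed the test (30%, near the 31.6% of all tested genes). The count was 11 without ZT12 replicate 3 and 10 without ZT12 replicate 2. The median range of the 20 was 0.54, and 4 of the 6 were highest at ZT20, against 18.5% of all changed genes. Atg4a, a protease that processes Atg8, was at 62.8, 68.1 and 71.2 CPM at ZT0, 44.8, 40.6 and 47.0 at ZT4, 28.5, 31.8 and 35.0 at ZT8, 24.6, 21.8 and 15.2 at ZT12, 38.1, 48.2 and 42.8 at ZT16, and 88.6 and 93.1 at ZT20. Atg13, a partner of the Atg1 kinase, went the other way, with 127, 122 and 123 CPM at ZT4 and 59.1 and 53.1 at ZT20, while Atg101 of the same complex was highest at ZT20 (47.4 and 45.7). Of 14 heat shock and chaperone genes 6 passed (42.9%, against 31.6% of all tested genes), with a median range of 0.95. Among them was stv, a BAG-domain cochaperone, at 884, 682 and 680 CPM at ZT4 against 452, 325 and 332 at ZT0. Hsc70-3 (BiP) and Hsc70-5, the mitochondrial Hsp70, were highest at ZT16, with ranges of 0.80 and 0.71. Of the inducible genes Hsp67Bc passed, at 6.85, 1.38 and 5.61 CPM at ZT16 and at most 1.37 at the other times, and Hsp23, Hsp26, Hsp27, Hsp68 and Hsp83 did not.

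The strongest changes by time of peak, named by the smallest p among genes with a mean of at least 10 CPM, added genes outside these lists. At ZT0 they were Nna1, a cytosolic carboxypeptidase (730, 1066 and 930 CPM at ZT0, against 185, 203 and 249 at ZT4), CG17267 (range 3.52) and Ncc69, a cotransporter of sodium, potassium and chloride (1.98). At ZT4 they were lab, twr and CG1307, which are neighbours on chromosome arm 3R. At ZT8 they were spok, a cytochrome P450 of ecdysone synthesis, Dyrk2, a protein kinase, and Slob. spok was at 44.2, 43.4 and 35.9 CPM at ZT4, 51.9, 41.2 and 45.8 at ZT8, and 37.2, 32.2 and 29.5 at ZT12, and at most 11.6 at the other 3 times.

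At ZT12 the rule named tim, vri and cwo. At ZT16 it named per, dy and Cnx99A. dy, which encodes a ZP-domain protein of the apical surface, was high at a single time point, at 5.28, 5.19 and 4.87 CPM at ZT12, 55.7, 52.4 and 59.2 at ZT16, and 5.37 and 5.35 at ZT20. Cnx99A, the calnexin needed for rhodopsin maturation, was at 400, 540 and 491 CPM at ZT0, 346, 333 and 300 at ZT4, 433, 453 and 473 at ZT8, 978, 1007 and 1236 at ZT12, 1672, 1444 and 1551 at ZT16, and 793 and 728 at ZT20. At ZT20 it named Clk, tinc, a transmembrane protein gene (356 and 346 CPM, against 82.3, 88.1 and 85.2 at ZT12), and CG32371, at 51.1 and 61.1 CPM, against 0.414, 0.251 and 0.12 at ZT12.

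The largest single steps were taken among genes with a mean of at least 10 CPM, an adjusted p under 0.05 and no overlap between the 2 time points. CG32371 had the largest rise both at ZT16 over ZT12 (3.64 in log2, SE 0.38) and at ZT20 over ZT16 (4.00, SE 0.24), and dy the largest fall at ZT20 against ZT16 (-3.38, SE 0.27). CG14556 had the largest rise at ZT8 over ZT4 (4.51, SE 0.24), CG5535 at ZT12 over ZT8 (2.66, SE 0.35) and CG13912 at ZT0 over ZT20 (1.01, SE 0.18, adjusted p = 0.0141). The last of these calls was lost under 6 of 28 alternatives, among them without ZT0 replicate 3 and without ZT20 replicate 3 (adjusted p = 0.0537 and 0.387). CG12541 fell the most at ZT4 against ZT0 (-2.71, SE 0.29), and the long noncoding RNA CR44187 at ZT16 against ZT12 (-5.47, SE 0.37), where it was at 1.33, 1.14 and 0.665 CPM at ZT16 and 39.7, 66.5 and 35.4 at ZT12. lab, a Hox transcription factor, had the largest of these steps, 7.46 (SE 0.32) at ZT4 over ZT0, and the largest falls at ZT8 against ZT4 (-4.77) and at ZT12 against ZT8 (-3.75).

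lab was at 5.24, 1.67 and 2.05 CPM at ZT0, 622, 544 and 467 at ZT4, 18.1, 17.4 and 24.5 at ZT8, 1.97, 1.59 and 0.750 at ZT12, 1.78, 1.63 and 2.28 at ZT16, and 2.97 and 2.34 at ZT20. Its range of 8.52 was the largest of the named genes, and only the ZT4 libraries were above 25 CPM. twr had the same course, with 492, 398 and 341 CPM at ZT4 and at most 39.0 elsewhere, and CG1307 reached 1444, 1251 and 1116 CPM at ZT4 against 28.4, 17.4 and 19.4 at ZT0. All 3 belonged to 13 consecutive tested genes on chromosome arm 3R, from 6626930 to 6696271 in the BDGP6.46 build, each changed over the day and each highest at ZT4. In order these were sowi, CG15177, sunz, CG31286, Ass, Taf1, CG1307, twr, agt, lab, Edg84A, Ccp84Ag and Ccp84Ac. Taf1, a subunit of the general transcription factor TFIID, lies next to CG1307 and was at 15660, 15694 and 14310 CPM at ZT4 against 934, 849 and 814 at ZT0 (range 4.14).

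This stretch was looked at after its values were seen, and prompted a count of such neighbours along all chromosome arms. Among genes highest at ZT4, 635 of 1032 changed genes (61.5%) had a tested gene next to them that also changed and was also highest at ZT4. The share was 41.7% for ZT20, 31.2% for ZT12, 26.6% for ZT0, 25.2% for ZT16 and 20.5% for ZT8. It depends on how many genes peak at a time, so the shares describe these genes and were given no test. Among genes with a mean of at least 10 CPM and no exon shared with another feature, it was 58.8% for ZT4 and 18.7% to 40.2% for the other times. A gene high at a single time point, as lab was, can reach that mean.

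Stretches of 5 or more consecutive tested genes that changed and shared a time of peak numbered 34, with 243 genes, and 26 of them, with 194 genes, peaked at ZT4. ZT20 had 5, ZT12 had 2, ZT8 had 1, and ZT0 and ZT16 had none. All but 1 of the 194 genes were also called without ZT12 replicate 3, and 125 of them had their highest mean at ZT4 in the mCherry RNAi libraries too. The longest held 15 genes on 3L, from 1196317 to 1245910, and began with Aplip1 (range 1.23). The 14 others, all downstream of Aplip1 and among them the lysozyme genes LysB, LysD, LysE, LysP and LysS, had a larger range than Aplip1. Over the 26 stretches, 168 genes lay beside the gene with the most CPM per kb of its stretch. Of these 98 (58.3%) were downstream of that gene, 77 were on the opposite strand and 132 had a larger range. In the stretch of lab that gene was sunz, not Taf1, so whether the layout around Aplip1 was general was not tested. A gene could enter the test through ZT4 alone, with low values at other times. Counts of larger ranges in these stretches, and the stretches themselves, are thus partly fixed by the filter.

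Genes of photoreceptor function lay in several of these stretches. Arr1, a visual arrestin, had a range of 0.92, and the 10 other members of its stretch on 2L all had a larger one. trpl lay in a stretch of 7 on 2R whose 6 other members all had a larger range than its 1.53. Hr38 lay beside CR44187 on 2L, and the glial marker Eaat1 lay in a stretch of 7 on 2L at 9304437 to 9344777. Counts were made without use of strand, so reads from a transcript on the other strand, or from 1 that runs on into the next gene, cannot be told apart from reads of the gene itself.

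**Figure D4:**
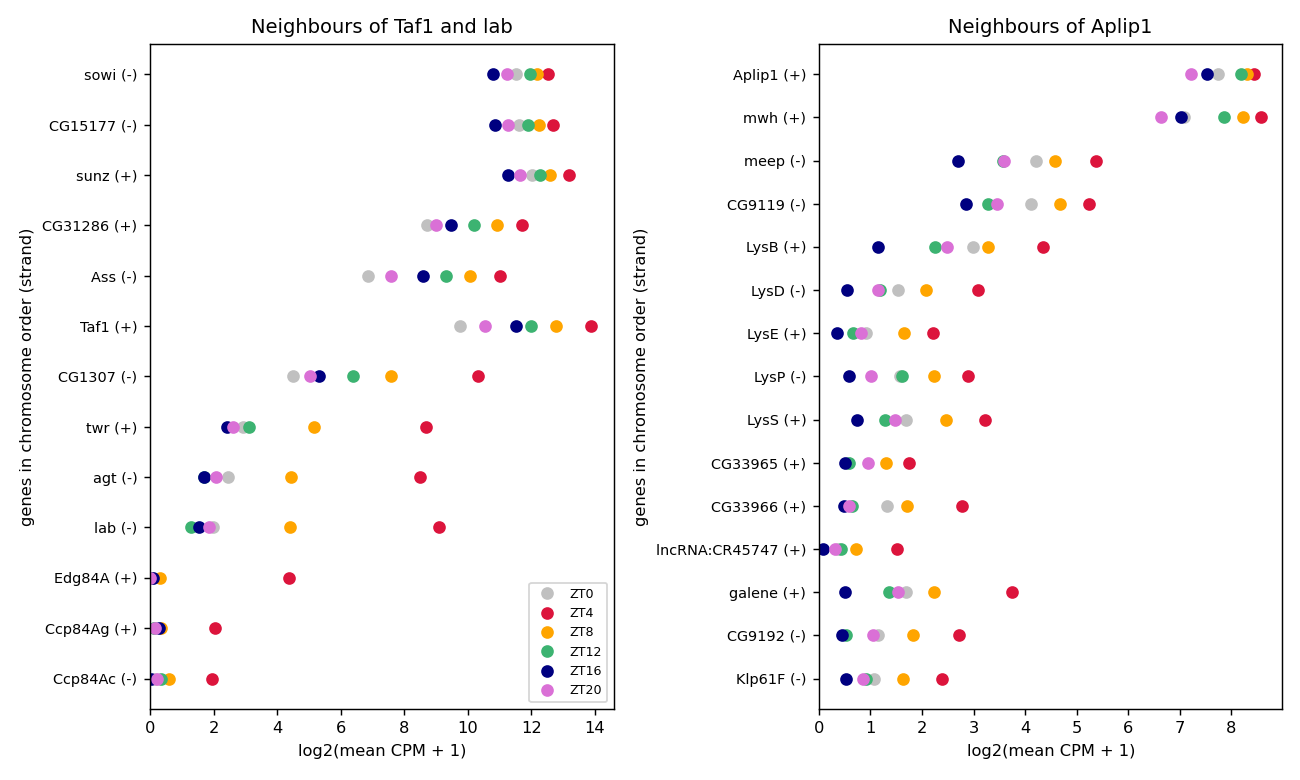
Mean level at each ZT, as log2(mean CPM + 1), in the libraries labelled Set1 RNAi, for the 13 genes of the 3R stretch that holds lab (left) and the 15 genes of the 3L stretch that begins with Aplip1 (right), in chromosomal order with the strand in brackets. In each row the ZT4 point lies furthest right, and on the left it is furthest from the ZT0 point at lab.

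Against mCherry RNAi, the number of genes called with a different daily course depended on which libraries entered the fit. Both genotypes were fitted together, and the genotype by time interaction (5 degrees of freedom) was called in 82 of 10948 genes (0.749%). The count was 162 without mCherry ZT12 replicate 1, in which 22.7% of the tested genes had no count, 151 without mCherry ZT12 replicate 3, and 225 without ZT12 replicate 3 of Set1 RNAi and replicate 1 of mCherry RNAi, of which 78 were among the 82. It was 1169 with all 4 genotypes in 1 fit, and 1 without the libraries numbered replicate 2 in both genotypes. Of 81 of these genes tested in each genotype alone, 59 had a smaller range with Set1 RNAi and 22 a larger one, with a median range of 1.54 with Set1 RNAi and 2.15 with mCherry RNAi. Over all 10076 genes tested in each genotype, 59.6% had a smaller range with Set1 RNAi, and the medians were 0.79 with Set1 RNAi and 0.86 with mCherry RNAi. Fitted alone, mCherry RNAi had 2126 of 10241 genes called over the day (20.8%), or 3312 of 10288 without ZT12 replicate 1, so the counts of the 2 genotypes moved with 1 library of each.

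The core clock had smaller swings, with fitted peaks at ZT 13.1 with Set1 RNAi and 12.6 with mCherry RNAi for tim, and 23.8 and 23.9 for Clk. Of the 9 genes, 8 had a smaller range with Set1 RNAi, the median was 3.87 with Set1 RNAi and 5.35 with mCherry RNAi, and 5 differences were called (cwo, vri, tim, per and Cipc). In the joint scaling tim reached 8149 ± 686 CPM at ZT12 with Set1 RNAi and 17182 ± 716 with mCherry RNAi (SD, n = 3 each, here and below), with no overlap, while at ZT20 the libraries overlapped (1262 to 1662 with Set1 RNAi and 1127 to 1428 with mCherry RNAi). The adjusted p of the difference was 0.000100. vri differed at both ends of its course. It was at 818 ± 96.1 CPM at ZT12 with Set1 RNAi and 1317 ± 129 with mCherry RNAi, and at ZT4 at 82.7 ± 18.1 with Set1 RNAi and 43.2 ± 10.2 with mCherry RNAi (adjusted p = 2.79e-05 over the course).

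cwo and per showed the same pair of differences. cwo was at 554 ± 43.4 CPM at ZT12 with Set1 RNAi and 906 ± 216 with mCherry RNAi, and at ZT0 at 49.0 ± 2.53 with Set1 RNAi and 29.6 ± 8.59 with mCherry RNAi (adjusted p = 2.79e-05). per was at 638 ± 83.5 CPM at ZT12 with Set1 RNAi and 985 ± 22.0 with mCherry RNAi, and at ZT4 at 75.6 ± 3.55 with Set1 RNAi and 51.3 ± 1.62 with mCherry RNAi (adjusted p = 0.000595). For Clk the ranges were 3.87 with Set1 RNAi and 5.45 with mCherry RNAi, but the difference was not called (adjusted p = 0.0519), although 17 of 47 alternatives called it.

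The other named genes with a called difference had no common direction. Of the 81 called genes tested in each genotype alone, 59 had a smaller range with Set1 RNAi. arc (a), which encodes a PDZ protein of cell junctions, had the smallest p of all (adjusted p = 1.65e-05): it was at 37.8 ± 4.19 CPM at ZT4 with Set1 RNAi and 23.5 ± 3.27 with mCherry RNAi, and at ZT16 at 24.2 ± 0.567 with Set1 RNAi and 50.9 ± 6.95 with mCherry RNAi. Ggamma30A differed at the end of the light phase, at 18059 ± 698 CPM at ZT12 with Set1 RNAi and 7841 ± 630 with mCherry RNAi (adjusted p = 0.0106). CkIIalpha had a range of 1.34 with Set1 RNAi and 0.57 with mCherry RNAi, with 107 ± 11.4 CPM at ZT8 with Set1 RNAi and 58.7 ± 5.98 with mCherry RNAi (adjusted p = 0.0187, but 0.0635 without ZT20 replicate 2 and 0.0946 without ZT20 replicate 3 of Set1 RNAi).

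lab and twr, of the same stretch, differed at ZT4 in size. lab was at 533 ± 77.2 CPM with Set1 RNAi and 24.6 ± 23.3 with mCherry RNAi, where single libraries reached 10.5 to 51.5, and twr at 401 ± 74.4 CPM with Set1 RNAi and 43.3 ± 31.9 with mCherry RNAi (adjusted p = 0.000263 and 0.0318). The call for twr was lost without any single ZT4 library of Set1 RNAi (adjusted p = 0.107, 0.0733 and 0.0521 without replicate 1, 2 and 3) and under 18 of 46 alternatives in all. Of the 82 genes, 19 belonged to the stretches that peak at ZT4, which held 194 of the 10783 genes tested with Set1 RNAi alone. Those stretches were picked by their course in the same Set1 RNAi libraries, so the count is partly fixed by that choice and was not tested. CG1307 and Taf1, of the same stretch as lab, were not called (adjusted p = 0.727 and 0.660).

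**Figure D5:**
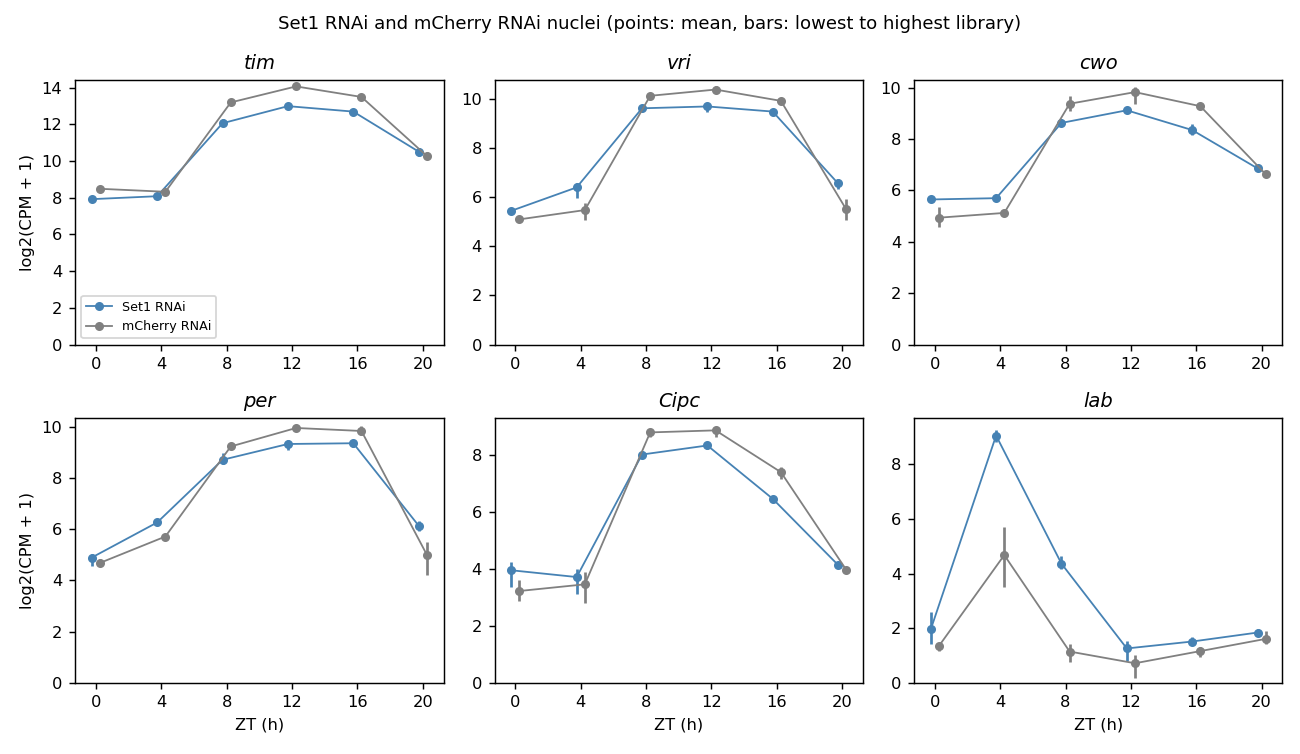
Mean level at each ZT, as log2(CPM + 1), of tim, vri, cwo, per, Cipc and lab in the libraries labelled Set1 RNAi (blue) and mCherry RNAi (grey), scaled jointly, with bars from the lowest to the highest library. At ZT12 the 5 clock genes lie lower with Set1 RNAi (tim at 8149 CPM, against 17182 with mCherry RNAi), and at ZT4 lab lies higher (533 CPM, against 24.6).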

How the data were processed

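The libraries were analysed from the counts the authors deposited: whole numbers of read pairs per feature, 24278 features, with no normalization. Per the labels and methods, the authors trimmed reads (cutadapt 3.7, Trimmomatic 0.39), aligned them with HISAT2 2.2.1 (SAMtools 1.17) to BDGP6.46 with Ensembl release 111 and counted exons with featureCounts (Subread 2.0.1) without strand. Read pairs are not independent molecules, and the spread between libraries sets the precision.

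In edgeR 4.0.16 (R 4.3.3), features with FBgn identifiers and at least 1 CPM in every library of at least 1 time point were scaled by TMM and tested with the quasi-likelihood F test: 5 df over 6 means, a 24-h cosine (2 df), its departure (3 df), 6 steps of 4 h and the genotype by time interaction, each Benjamini-Hochberg adjusted over all genes at 0.05. The steps were tested on simulated data.

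The members, lists and rule for named genes were chosen with earlier results of these data known. The rule took Set1, trx, trr and the core clock, the 3 genes of smallest p per peak time, the gene with the largest rise and fall per step (both with a mean of at least 10 CPM and no overlap between the times), 3 per list, and 3 for the interaction. In lists, dbt is named dco, CdsA Cds and Hop Stip1 in the name table.

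Alternatives were DESeq2 size factors (version 1.42.0) and its likelihood ratio test, 2 other filters, all features, a fold minimum, a replicate block, 1 factor of unwanted variation, 1 fit of all 4 genotypes, ZT20 replicate 1 included, and each library or replicate number left out.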

Additional observations from a re-analysis of the deposited data

Results flagged for a closer look

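Of 64 genes named by the rule, 11 had a daily course that differed between the libraries labelled Set1 RNAi and mCherry RNAi in the test of the genotype by time interaction, against 0.749% of all genes tested (82 of 10948). The rule took arc (a), vri and cwo for that same test. It took others, among them lab, twr and CG14556, for their changes in the same Set1 RNAi libraries. The count is thus partly fixed by the choice, and its share cannot be weighed against that of all genes. By adjusted p from edgeR these were arc (a) (1.65e-05), cwo (2.79e-05), vri (2.79e-05), tim (0.000100), lab (0.000263), per (0.000595), CG14556 (0.00345), Cipc (0.0102), Ggamma30A (0.0106), CkIIalpha (0.0187) and twr (0.0318).

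Most of these genes have their values in the report. CG14556 was at 46.0 ± 3.89 CPM at ZT12 with Set1 RNAi and 72.5 ± 19.7 with mCherry RNAi (SD, n = 3 each), and at ZT0 at 1.52 ± 0.506 with Set1 RNAi and 0.424 ± 0.0116 with mCherry RNAi, a smaller swing at both ends. Cipc was at 323 ± 25.6 CPM at ZT12 with Set1 RNAi and 467 ± 59.4 with mCherry RNAi. twr was the least stable of the 11.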

How the results depend on the processing

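No log2 fold change of a named step gene changed direction under the alternatives that were run (323 checks kept their call and 6 lost it). Counts and adjusted p-values have no direction, so for them only a moved count or a gained or lost call was recorded. The causes of the moved counts were not tested. With 1 factor of unwanted variation, 1035 genes departed from a cosine, 997 were lower at ZT4 than at ZT0, 263 were higher and 908 lower at ZT8 than at ZT4, 181 and 198 at ZT20 than at ZT16, 9 and 74 at ZT0 than at ZT20, and 165 differed from mCherry RNAi. With all 4 genotypes in 1 fit, these were 1327 departures, 549 lower genes at ZT12 than at ZT8, 1030 lower at ZT16 than at ZT12, 174 higher and 184 lower at ZT20 than at ZT16, 33 and 88 at ZT0 than at ZT20, and 1169 differences. A fold minimum of 1 in log2 left, higher and lower at each step, 501 and 201, 67 and 229, 78 and 66, 326 and 254, 48 and 55, and 1 and 20. The difference from mCherry RNAi was called in 163 genes by the cosine test, in 128 with at least 1 CPM in every library, and in 225 without the ZT12 library of each genotype that stood apart (chosen after seeing the data). DESeq2's likelihood ratio test called 4376 genes over the day, and its size factors shifted the median of a step by at most 0.03 in log2 and turned 0 called directions.

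Leaving out a replicate number or a library gave 1542 to 4419 genes over the day, 1520 to 3851 cosines, 111 to 999 departures and 1 to 162 differences from mCherry RNAi. Higher and lower genes at each step ranged over 479 to 1337 and 173 to 970, 61 to 256 and 104 to 907, 22 to 618 and 8 to 452, 290 to 940 and 307 to 836, 16 to 187 and 15 to 195, and 0 to 9 and 1 to 73. Replicate numbers were not taken to pair the samples, since the labels do not say so and only 16 of 40 same-numbered pairs had deviations that correlated above 0.1. The median correlation was 0.070 for pairs with the same number and -0.045 for pairs with different numbers, and 12 of 17 libraries correlated best with their own number, which is a hint of shared variation. With a replicate block the test called 3492 genes over the day and 5 instead of 3 higher at ZT0 than at ZT20. Of the checks of named genes over the day 1822 kept their call, 19 gained it and 9 lost it. Of the checks of their difference from mCherry RNAi 2872 kept their call, 84 gained it and 41 lost it, with gains for tws under 23 of 47 alternatives, for Clk under 17 and for Dyrk2 under 16. The difference of twr from mCherry RNAi was lost under 18 of 46 alternatives.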

Other observations

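The stretches of neighbours that peaked at ZT20 had a different layout from the one around lab, seen after the values were known. In 3 of the 5, every member lay within the bounds of 1 long gene. EcR, the ecdysone receptor, spanned its whole stretch on 2R (6087873 to 6169087), with tRNA genes and CR43904 inside it. It was at 357, 386 and 374 CPM at ZT0, 163, 175 and 184 at ZT4, 172, 195 and 183 at ZT8, 131, 146 and 147 at ZT12, 317, 414 and 352 at ZT16, and 548 and 497 at ZT20 (range 1.89, edgeR adjusted p = 7.15e-10). The ZT20 libraries lay above all others, and CR43904 inside it had a range of 3.47.

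fry, a large protein needed for the shape of neuronal processes, spanned a second such stretch on 3L (9631834 to 9679103) and was highest at ZT20 (2800 and 2734 CPM) and lowest at ZT8 (724, 744 and 1044). Inside it CNMaR, a neuropeptide receptor gene on the other strand, was also highest at ZT20 (282 and 296 CPM) and lowest at ZT8 (85.1, 84.2 and 97.2). The third was spanned by CG33203 on 3R, with Nepl17 to Nepl21, genes of neprilysin-like peptidases, inside it at ranges of 0.96 to 1.21 beside 1.06 for CG33203. Since counts used no strand, the RNA of an inner gene and that of its host cannot be told apart here.

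Cam, calmodulin, lay in a ZT4 stretch of 11 genes on 2R and had the course of the light response genes: 1189, 1165 and 824 CPM at ZT0, 3625, 4259 and 3024 at ZT4, 1907, 1930 and 1852 at ZT8, 2302, 2029 and 1984 at ZT12, 979, 1096 and 759 at ZT16, and 1016 and 920 at ZT20 (range 1.94). Every library of ZT4 to ZT12 was above every library of the other times.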
